A study of Cricetiscus sungorus with 216 samples.

Results

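Potassium channel genes were taken as all gene symbols that begin with Kcn, followed by the letter or letters of a family and a number, and were followed in 3 hypothalamic tissues of the Djungarian hamster: the mediobasal hypothalamus (MBH), the dorsomedial hypothalamus (DMH) and the paraventricular nucleus (PVN). The 3 tables together named 93 such genes among 30171 gene symbols, 89 of them in the MBH, 86 in the DMH and 81 in the PVN. Transcripts had to be read in at least 10 of the 54 libraries of a tissue to be tested, which 71 genes passed in the MBH, 53 in the DMH and 52 in the PVN. A total of 43 genes passed in all 3 tissues and 72 in at least 1. The hamsters were 54 intact adult males, 6 kept throughout in long photoperiod (LP) and 6 in each of 8 groups killed after 4, 8, 12, 16, 20, 24, 28 or 32 weeks of short photoperiod (SP), and none carried a transgene or received an agent. Under a constant SP these hamsters first take on the winter state (induction, 4 and 8 weeks), hold it (maintenance, 12 to 20 weeks) and then return to the summer state without a change of light (recovery, 24 to 32 weeks). Each library was 1 tissue dissection of 1 hamster, so each group had n = 6, and fewer cells of a type and less RNA per cell cannot be told apart in such samples.

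Potassium channels let potassium leave or enter a cell and thereby set its resting potential, end the action potential and space the spikes that follow. Voltage-gated (Kv) pores open on depolarisation and are tuned by auxiliary and silent subunits, M-current channels hold back repetitive firing, and calcium- or sodium-activated channels follow a burst. Inward rectifiers and two-pore leak channels act near rest, and include ATP-sensitive channels that report energy state, G protein-gated channels that carry inhibition by transmitters and a glial channel that clears potassium around neurons. In hypothalamic neurons of energy balance these currents decide whether a cell fires in response to nutrients, hormones and peptides, and the comparison of LP with the SP weeks asks whether their transcripts follow the seasonal programme.

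The genes fell into 9 groups by role. In the MBH they were 15 Kv pores, 12 auxiliary subunits, 5 silent modifiers, 7 channels of the EAG, ERG and ELK families, 3 of the M-current family, 14 inward rectifiers, 8 two-pore leak channels, 6 calcium- or sodium-activated channels and 1 RNA gene, Kcnq1ot1, which is antisense to a channel gene and makes no channel. The DMH had 15, 10, 1, 4, 3, 9, 6, 4 and 1 of them in the same order. In the PVN the counts were 14, 8, 3, 4, 2, 9, 7, 5 and 0. Genes that passed only in the MBH were Kcne4, Kcng3, Kcnh3, Kcnh5, Kcnj13, Kcnj15, Kcnj5, Kcnj8, Kcnn2 and Kcnv1, and Kcnk15 passed only in the PVN. The tissues differed in depth and the PVN in its listing of isoforms, so passing in only 1 is not taken as a difference between tissues. A gene at 0 in LP, such as Kcnj12, Kcnj8 or Kcnn2 in the MBH, could pass only through its SP libraries.

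Totals without the MBH and DMH transcript Gm32262, which took 8.33 to 69.1% of the counts, ran from 4532 to 7174572 counts per library in the MBH and from 87441 to 5884442 in the DMH. In the PVN, where that symbol took 0% of the counts, the range was 159 to 998245. The Kcn genes held few of those counts, with a median of 911.5 per library in the MBH, 99.5 in the DMH and 122 in the PVN. Fewer than 6000 gene symbols were read in 4 MBH, 23 DMH and 5 PVN libraries. The 4 MBH libraries were 1 at 8, 2 at 20 and 1 at 24 weeks, and held 1 to 13 of the 71 genes. The 5 PVN libraries were 1 from LP, 3 at 16 weeks and 1 at 28 weeks, and held 0 to 15 of the 52 genes. The 23 DMH libraries comprised 1 from LP, 3, 1, 2, 2, 4, 1, 4 and 5 from the SP weeks in order, their 20 most read genes took 87.3 to 99.2% of counts, and they held 0 to 15 of the 53 genes against 15 to 52 in the other DMH libraries. Levels are given as CPM (counts per 1000000 of the scaled library total). Summed neuronal markers (Snap25, Syt1, Stmn2, Rbfox3, Eno2, Nefl) had medians of 1271 CPM in the MBH and 163 in the DMH. The PVN median of that sum was 1685 CPM, which is not compared with the others because its isoforms were listed differently. In the DMH that sum had a median of 314 CPM in LP and of 93.3 to 220 CPM in the SP weeks. Markers of the arcuate nucleus and its neighbours (Pomc, Agrp, Npy, Cartpt, Ghrh, Kiss1, Tac2, Nr5a1) summed to a median of 569 CPM in the MBH, and markers of the dorsomedial and lateral hypothalamus (Ppp1r17, Npvf, Hcrt, Pmch, Grp, Gal) to only 15.6 CPM in the DMH libraries. Avp, Oxt and Crh of the PVN were not analysed here, and the other PVN markers (Trh, Sim1, Otp) summed to a median of 167 CPM.

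**Figure D1:**
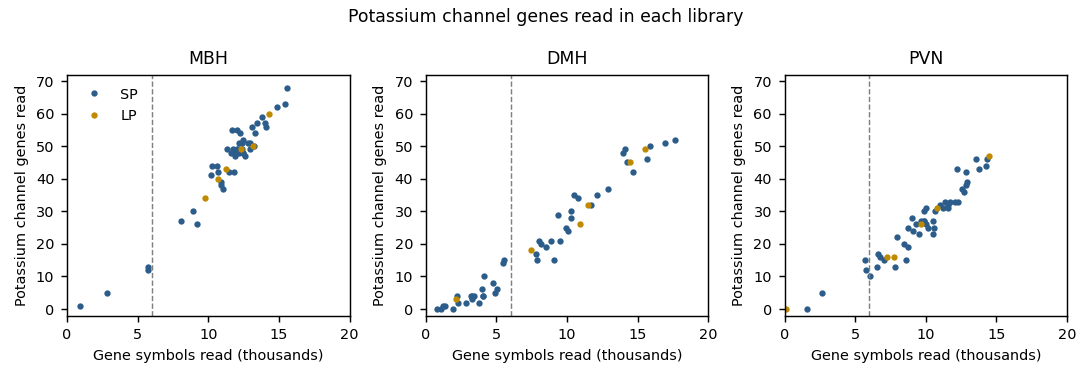
Number of potassium channel genes that passed (y axis) against the number of gene symbols read (x axis, in units of 1000), 1 point per library, LP in yellow and SP in blue, with 1 panel for each tissue and a dashed line at 6000 symbols. The points rise together in every tissue, and 23 of the 54 DMH libraries lie left of the line with 0 to 15 of the 53 genes read.

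The tables list isoforms, and the values of a gene were summed over them. Many channel genes have numerous isoforms, and the same count was often listed for several of them. Kcnma1, the large-conductance calcium-activated pore, summed to 4733 counts over 48 isoforms in the MBH, of which the highest held 216. Kcnt1, a sodium-activated pore, summed to 432 counts over 41 isoforms in the DMH, 24.0 times the counts of the highest isoform of each library. Kcnj12, an inward rectifier, had the same count on every isoform in 9 of the 18 MBH libraries that read it. The median ratio of summed counts to those of the highest isoform of each library was 2.64 in the MBH, 2.61 in the DMH and 1.00 in the PVN, where 42 of 52 genes had 1 isoform and none had 10 or more. In the MBH 14 of 71 and in the DMH 13 of 53 had 10 or more. Summed counts of these genes are therefore not taken as numbers of reads, and no level is compared here between genes or between the PVN and the other tissues.

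**Figure D2:**
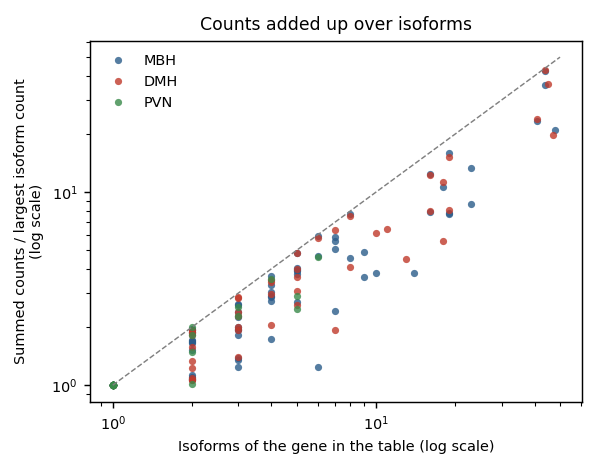
Ratio of the counts summed over isoforms to the counts of the highest isoform of each library (y axis, log scale) against the number of isoforms in the table (x axis, log scale), 1 point per potassium channel gene and tissue, with the dashed line where every isoform has the same counts. The ratio was 24.0 for Kcnt1 with 41 isoforms in the DMH, while most PVN genes sit at 1.

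In the MBH the potassium channel transcripts that were read in most libraries showed no change with photoperiod that passed the test. The F-test over the 9 groups (edgeR quasi-likelihood, Benjamini-Hochberg adjustment over all genes tested, FDR below 0.1) passed 1 of 71 channel genes, Kcnj12, beside 0.306% of all 15020 genes. A 32-week harmonic passed 0 of 71 in edgeR, beside 0.373% of all genes, and 0 in DESeq2, with 9 genes (12.7%) at an unadjusted p under 0.05 in edgeR, beside 4.87% of all genes. At the single SP weeks 0 of 568 gene and week pairs passed in edgeR, beside 0.0125% of the pairs of all genes, and 0 in DESeq2, with 71 pairs (12.5%) at an unadjusted p under 0.05, beside 4.64%. The 8 weeks and the phases share the same 6 LP libraries. Of the phases, induction passed 0 channel genes in edgeR, beside 0.0466% of all genes, maintenance 0, beside 0.126%, and recovery 1, Kcnmb2, beside 0.0666%, while DESeq2 passed none. Unadjusted p-values under 0.05 were found for 9, 12 and 11 of the 71 genes in the 3 phases, beside 5.27, 5.7 and 4.82% of all genes. The median log2 fold change of the 71 genes was -0.11 in induction, -0.04 in maintenance and -0.02 in recovery, beside -0.06, -0.06 and -0.04 over all genes.

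An unadjusted F-test p under 0.05 was found for 11 of the 71 genes (15.5%, against 6.07% of all genes): Kcnj12, Kcnmb2, Kcnj15, Kcnn2, Kcnj8, Kcnk4, Kcnh3, Kcnj13, Kcnh7, Kcnv1 and Kcnt1. These were rarely read genes, found in 10 to 31 libraries with 7 to 42 counts on the highest isoform. Among the 49 channel genes read in 27 or more libraries 2 had such a p (4.08%, against 1.59% of all genes read as often), and among the 22 read in fewer libraries 9 did (40.9%, against 24.1%). With the highest isoform in place of the sum the shares were 11.6% of the channel genes and 5.07% of all genes. In the DESeq2 likelihood ratio test they were 1.43% and 1.76%.

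By role, the MBH genes were divided between both directions in maintenance, none past the threshold. Higher and lower estimates were 7 and 8 among Kv pores (median log2 fold change -0.12), 6 and 6 among auxiliary subunits (0.08), 2 and 3 among silent modifiers (-0.75), 4 and 3 among EAG, ERG and ELK genes (0.62) and 1 and 2 in the M-current family (-0.04). They were 4 and 10 among inward rectifiers (-0.29), 3 and 5 among leak channels (-0.45) and 4 and 2 among calcium- or sodium-activated channels (0.57), beside a median of -0.06 over all genes. An unadjusted maintenance p under 0.05 was found for 5.7% of all genes. It was found for 0 of the 15 Kv pores, read in 28 to 50 libraries each, and for 3 of the 14 inward rectifiers. The inward rectifiers were read in 10 to 49 libraries. Higher and lower estimates with such a p were 2 and 1 among 8 leak channels and 1 and 1 among 5 silent modifiers. They were 1 and 1 among 7 EAG, ERG and ELK genes and 0 and 1 among 12 auxiliary subunits. They were 1 and 0 among 6 calcium- or sodium-activated channels and 0 and 0 among 3 M-current genes.

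Among the pores and subunits read often in the MBH, the M-current gene Kcnq3 had a maintenance log2 fold change of 0.38, with a 95% interval of -0.61 to 1.39.

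Kcnj10, the inward rectifier of astrocytes and other glia, had a lowest, median and highest value of 3.45, 9.51 and 19.7 CPM in LP. Medians in SP ran from 4.82 CPM at 4 weeks to 12.5 CPM at 28 weeks, and the groups overlapped throughout. The maintenance log2 fold change was -0.01 (95% interval -0.98 to 0.95) and that of recovery 0.04 (-0.91 to 1.00).

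The A-type current, which delays the next spike, is carried by Kcnd pores with Kcnip subunits that bind calcium. Kcnip1 had 39.4, 55.7 and 147 CPM as lowest, median and highest LP values, and SP medians of 46.6 to 88.0 CPM. Its groups overlapped, and its maintenance log2 fold change was -0.20 (95% interval -0.93 to 0.54). Kcnip4 had 7.77, 31.8 and 53.4 CPM in LP and SP medians of 15.1 to 37.3 CPM, with a maintenance log2 fold change of -0.16 (-0.99 to 0.66). The pore Kcnd2 had 1.98, 6.76 and 16.9 CPM in LP. Its SP medians ran from 4.09 CPM at 20 weeks, where 2 of 6 libraries held few gene symbols, to 7.84 CPM at 4 weeks. Again all groups overlapped, and its induction log2 fold change was -0.08 (-0.92 to 0.76). For its relative Kcnd3 the maintenance log2 fold change was 0.39 (-0.67 to 1.45).

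Over the 71 genes, the 95% interval of the maintenance fold change lay within 2-fold of no change for a few, among them Kcnip1, Kcnip4 and Kcnj10, which also lay within it in recovery, while in induction Kcnd2 alone did. The median interval was 2.73 log2 units wide in maintenance, and for 13 genes no interval could be had because a group was at 0.

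**Figure D3:**
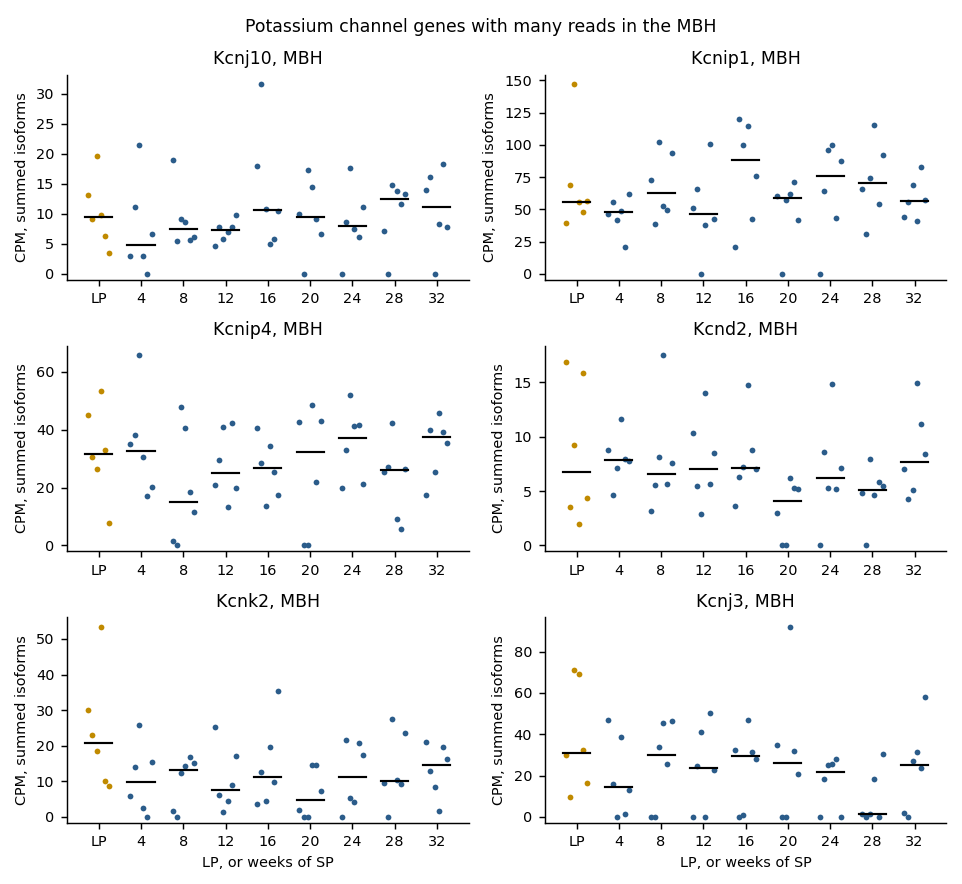
CPM of 6 often read potassium channel genes in the MBH (y axis, linear scale) in LP (yellow) and after 4 to 32 weeks of SP (blue), 1 point per library and a bar at the median of 6. Kcnj10 medians stay between 4.82 and 12.5 CPM, while the SP medians of Kcnk2, from 4.61 to 14.6 CPM, all lie below its LP median of 20.7 CPM.

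Other often read genes had wider intervals. Kcnk2, a mechanically and lipid-gated leak channel, had 8.64, 20.7 and 53.4 CPM in LP and SP medians of 4.61 CPM at 20 weeks to 14.6 CPM at 32 weeks. All 8 SP medians lay below that of LP although the ranges overlapped, and the maintenance log2 fold change of -1.10 (95% interval -2.21 to -0.01) had an edgeR adjusted p of 0.869. Kcnj3, a G protein-gated pore, had 9.53, 31.2 and 71.0 CPM in LP and 0, 1.17 and 30.5 CPM at 28 weeks, where 2 of 6 libraries had no count. In the exact permutation test, 2-sided, of 6 against 6 libraries the 28-week Kcnj3 difference of mean CPM of -29.5 had p = 0.0325, or 0.260 adjusted over the 8 weeks. Over 32 named genes and 8 weeks, 6 of 256 such tests had p under 0.05 (2.34%, beside 3.35% of all gene and week pairs), namely Kcnn2 and Kcnj3 at 28 weeks, Kcnj6 at 20 and 24 weeks, Kcnc1 at 12 weeks and Kcnk2 at 20 weeks.

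Kcnj12, an inward rectifier that is also a main channel of skeletal muscle, had no count in any of the 6 LP libraries. It was read in 18 SP libraries, with 2, 3, 1, 1, 3, 4, 2 and 2 of 6 libraries at 4 to 32 weeks in order. At 24 weeks the lowest, median and highest values were 0, 3.14 and 6.96 CPM, with summed counts of 8, 8, 8 and 1 in the 4 libraries that read it. LP libraries were thus level with the lowest SP libraries of every week, and the SP groups differed in how many libraries held any count. The F-test adjusted p was 0.0960 in edgeR. The summed counts were 25 at 24 weeks and 69 over all SP weeks, of which the highest isoform held 24, so that no fold change against the empty LP group is given. Skeletal muscle markers (Ttn, Neb, Acta1, Ckm, Mylpf, Tnnt3) summed to 1.73, 7.80 and 572 CPM as lowest, median and highest in LP and to 0, 7.86 and 38.1 CPM at 24 weeks, and their part in the result was not tested.

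Kcnmb2, an auxiliary subunit that inactivates the large-conductance calcium-activated channel, was read in 19 MBH libraries. Its LP values were 0, 0.199 and 39.4 CPM as lowest, median and highest, and those of 24, 28 and 32 weeks reached at most 0.675, 1.2 and 1.07 CPM. A single LP library, replicate 1, held 21 of the 24 LP counts, and the other LP libraries lay in the range of the SP libraries. In edgeR the recovery log2 fold change of Kcnmb2 was -4.29 ± 1.01 (SE) with an adjusted p of 0.0428, and without replicate 1 of every group it was -1.21 with an adjusted p of 1.00.

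Kcnn2 forms the small-conductance calcium-activated channel that slows firing after a burst. No LP library held a count of it, whereas all 6 libraries at 28 weeks did, with 0.832, 1.17 and 7.72 CPM as lowest, median and highest. The ranges at 28 weeks and in LP did not overlap, while those of the 7 other weeks did. The exact permutation test gave p = 0.00216, the smallest that the splits of 6 against 6 can give, and 0.0173 after adjustment over the 8 weeks alone. Kcnn2 was named for one of the 5 smallest F-test p-values in the same libraries, so that this test is not independent of its choice. It was the only one of the 256 named gene and week pairs with an adjusted p under 0.1, beside 1.54% of all pairs. Such pairs were 2 without TMM, 0 with the highest isoform, and 4 and 8 without replicate 3 and replicate 6 of every group. The share of all pairs was not computed for these other settings. The summed counts at 28 weeks were 14. Over the 9 groups the edgeR F-test adjusted p was 0.319, and with the highest isoform alone, which had 22 counts in all, the exact permutation p at 28 weeks was 0.485 after adjustment.

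Kcnj8 and Kcnj11 form the pore of ATP-sensitive channels, Kcnj8 mainly in vessel walls and Kcnj11 in neurons and endocrine cells. Kcnj8 was at 0 in LP and was read in 12 SP libraries, 4 of them at 20 weeks, where the values were 0, 0.877 and 2.60 CPM. Its LP libraries did not differ from the lowest libraries of any SP week, and the edgeR F-test adjusted p was 0.383. Endothelial and mural markers (Cldn5, Flt1, Pdgfrb, Abcc9, Vtn) had a median sum of 18.7 CPM in LP and 19.9 CPM at 20 weeks. For Kcnj11, read in 29 MBH libraries, the maintenance log2 fold change was 1.35 (95% interval -0.39 to 3.22; edgeR adjusted p 1.00). Kcnj15, another inward rectifier, was read in 10 libraries, and its 2 highest values, 9.86 CPM at 4 weeks and 10.9 CPM at 28 weeks, both came from 42 summed counts spread over 23 isoforms of which the highest had 2.

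In the DMH few channel genes could be followed through all groups, and 4 passed a test, each on counts from a handful of libraries. The edgeR F-test over the 9 groups passed 3 of 53 genes, Kcnt1, Kcnh7 and Kcnk4, beside 1.23% of all 14691 genes. Induction passed 2, Kcnb2 and Kcnh7, both lower than in LP (0.606% of all genes), and maintenance passed Kcnh7, also lower (0.245%). Recovery passed 0 in edgeR (0.109%). The harmonic passed 0 (0.293%), and the single weeks 0 of 424 gene and week pairs (0.00255%). Unadjusted p-values under 0.05 were found for 11, 10 and 3 genes in the 3 phases, beside 8.4, 9.9 and 9.16% of all genes, for 9 in the harmonic (17%, beside 5.12%) and for 49 gene and week pairs (11.6%, beside 6.79%). DESeq2 passed 0 channel genes in all of these comparisons.

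The medians of the DMH genes lay below LP together with those of the whole table. The median log2 fold change of the 53 genes was -0.62 in induction, -0.65 in maintenance and -0.52 in recovery, beside -0.24, -0.36 and -0.36 over all genes tested. In maintenance 10288 of all 14691 genes were below LP, and 40 of the 53 channel genes were. By role these were 10 of 15 Kv pores, 8 of 10 auxiliary subunits and 4 of 4 EAG, ERG and ELK genes. They were 7 of 9 inward rectifiers, 3 of 3 M-current genes, 3 of 6 leak channels and 3 of 4 calcium- or sodium-activated channels. The 1 silent modifier and the RNA gene Kcnq1ot1 were lower too. Kcnh7 was the 1 channel gene past the threshold in maintenance. The neuronal marker sum given above was lower in each SP group than in LP too, and its part was not tested. As in the MBH, small p-values went with rare reads: an unadjusted F-test p under 0.05 was found for 14 of the 53 genes (26.4%, against 12.5% of all genes), for 13 of the 38 read in fewer than 27 libraries (34.2%, against 23.1%) and for 1 of the 15 read more often (6.67%, against 1.37%). Leaving out the 23 DMH libraries of few genes took away 5 of 6 libraries at 32 weeks and 4 of 6 at 20 and at 28 weeks. The median maintenance log2 fold change over all genes was then -0.19. With so few libraries left, that fit cannot decide which genes pass.

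Kcnt1, a sodium-activated channel, was read in 10 DMH libraries. The group medians were 0 CPM throughout, and the highest values were 12.5 CPM at 12 weeks, 8.44 at 16, 20.0 at 24 and 6.66 at 28 weeks, against 0.181 CPM in LP. These 4 groups differed from LP in 1 or 2 libraries each, and the remaining libraries overlapped at 0. The edgeR adjusted p was 0.0541. The 5 libraries with the most Kcnt1 held 60, 107, 104, 96 and 60 summed counts from 41 isoforms, of which the highest isoform had 2 to 3 counts per library.

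Kcnh7, an ERG-type pore, had LP values of 0, 0 and 8.72 CPM as lowest, median and highest, with counts in replicates 1 and 4 only. It was at 0 in all 6 libraries at 8 weeks and at 20 weeks, and its highest SP value was 4.22 CPM at 4 weeks. LP and SP therefore overlapped at 0 in every week. The log2 fold change was -3.74 in induction (edgeR adjusted p 0.0860) and -3.47 in maintenance (edgeR adjusted p 0.0847), with no finite interval. The LP libraries held 96 summed counts on 19 isoforms, and the highest isoform had 12.7 counts over all 54 libraries.

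Kcnb2, a delayed rectifier pore, had LP values of 0, 0.294 and 2.17 CPM. No library at 4, 8 or 32 weeks held a count, while 5 of 6 did at 24 weeks, with a median of 0.472 CPM. The induction log2 fold change was -4.19 (edgeR adjusted p 0.0329), a fitted value with no finite interval, since both groups of this phase were at 0, against 20 summed counts in LP. Kcnk4, a mechanically gated leak channel, had LP values of 0, 0.465 and 4.33 CPM and was at 0 in all libraries at 16 and 32 weeks, while its highest SP value was 9.19 CPM at 20 weeks, in a single library. The edgeR F-test adjusted p was 0.0783 and no phase passed.

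**Figure D4:**
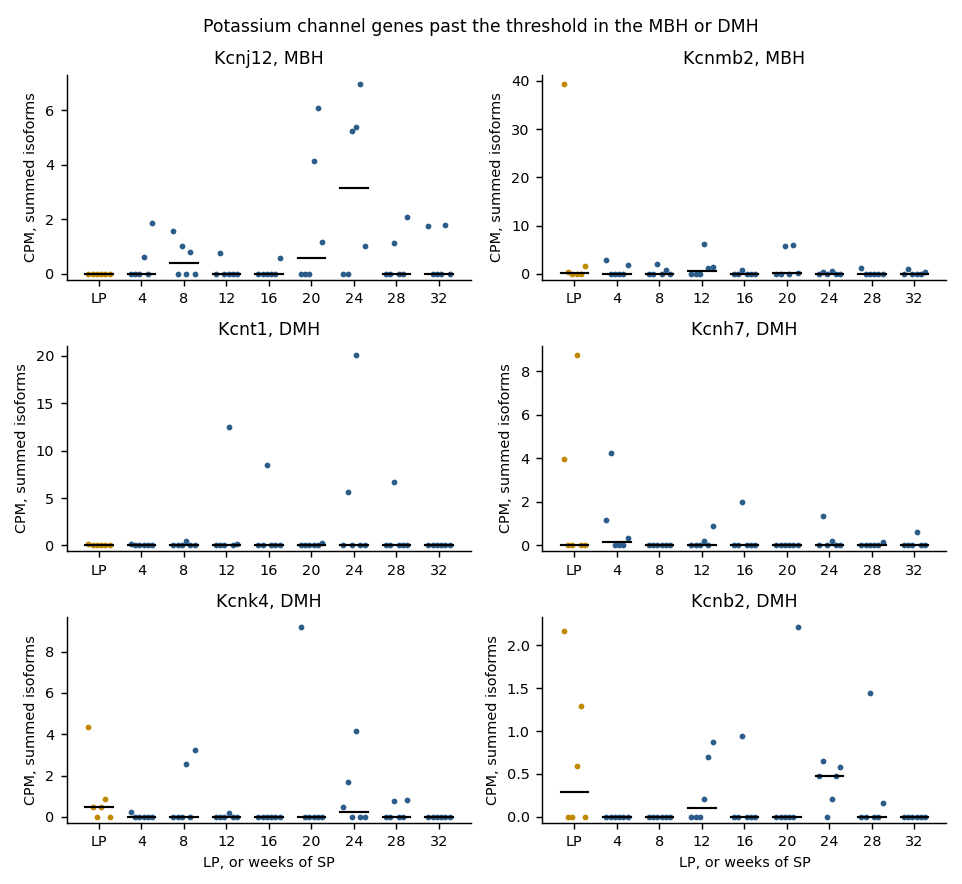
CPM (y axis, linear scale) of the potassium channel genes past the threshold in the MBH (Kcnj12, Kcnmb2) or DMH (Kcnt1, Kcnh7, Kcnk4, Kcnb2), in LP (yellow) and after 4 to 32 weeks of SP (blue), 1 point per library and a bar at the median of 6. Most points lie at 0, and single libraries, such as the LP library at 39.4 CPM for Kcnmb2, stand above them.

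In the DMH the glial Kcnj10 had 0, 2.92 and 4.32 CPM in LP and SP medians of 0 at 28 weeks to 2.75 CPM at 12 weeks. Its maintenance log2 fold change was -0.32 (95% interval -1.62 to 0.98). Of 248 named gene and week pairs in the DMH 6 had an exact permutation p under 0.05 (2.42%, beside 3.21% of all pairs), and 0 had an adjusted p under 0.1 (beside 1.24%). Without replicate 3 of every group 18 of 232 such pairs had an adjusted p under 0.1, 5 of 216 did without replicate 6, and the share of all pairs was not computed for these.

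In the PVN no potassium channel gene passed the edgeR F-test (0 of 52, beside 0 of 14031 genes), the harmonic (0, beside 0.0285%), a single week (0, beside 0) or a phase (0, beside 0, 0.00713 and 0.00713%), and DESeq2 passed none either. Unadjusted p-values under 0.05 were found for 5 genes in the F-test (9.62%, against 5.01% of all genes), 2 in the harmonic (3.85%, against 4.08%) and 31 of 416 gene and week pairs (7.45%, against 3.88%). By phase they were found for 6, 3 and 5 genes, against 4.11, 4.08 and 4.06% of all genes. The median log2 fold change of the 52 genes was -0.07, -0.23 and -0.19 in the 3 phases, beside 0.03, -0.03 and -0.02 over all genes. LP replicate 1, with 159 counts in all, held no count of any of them.

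In the PVN, Kcnip1 had 0, 90.7 and 181 CPM in LP and SP medians from 44.6 CPM at 16 weeks to 151 CPM at 28 weeks. All SP ranges overlapped that of LP, with a maintenance log2 fold change of -0.10 (-0.98 to 0.77). The cytoplasmic subunit Kcnab2, which docks on Kv pores, had log2 fold changes of -0.94 (-1.86 to -0.02), -0.81 (-1.69 to 0.06) and -0.84 (-1.71 to 0.02) in the 3 phases, with an edgeR adjusted p of 1.00 in each.

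Kcnk9, an acid-sensitive leak channel, had LP values of 0, 0 and 20.2 CPM and values of 0, 50.9 and 75.0 CPM at 28 weeks, where 4 of 6 libraries read it. The other SP medians ran from 0 to 22.9 CPM, and the ranges overlapped in each week. The edgeR F-test p was 0.0316 and 0.959 after adjustment. Kcna3, a Kv pore known from microglia and lymphocytes as well as neurons, had 0, 2.52 and 13.9 CPM in LP and was read in 5 of 6 libraries at 4 and at 32 weeks, but in 1 or 2 of 6 in the weeks between. Its edgeR F-test p was 0.00932 and 0.799 after adjustment. The sodium-activated Kcnt1 was at 0 in LP and read in 4 of 6 libraries at 12 weeks, with 12 summed counts from 2 isoforms that always held the same count, and its adjusted p was 0.672 in edgeR. Of 240 named gene and week pairs in the PVN 2 had an exact permutation p under 0.05 (0.833%, beside 2.94% of all pairs) and 0 an adjusted p under 0.1 (beside 1.15%). With the libraries under 10000 counts left out, among them LP replicate 1, 9 of the 240 pairs had an adjusted p under 0.1. Of the pairs tested without replicate 1 of every group 7 of 232 did, and 3 of 240 did without replicate 6. The share of all pairs was not computed for these settings, so no excess among channel genes can be read from them.

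Set side by side in maintenance, each tissue against its own LP libraries, the G protein-gated pore Kcnj6 had log2 fold changes of -0.74 (95% interval -1.70 to 0.20) in the MBH, 0.48 (-1.15 to 2.15) in the DMH and -1.27 (-3.20 to 0.25) in the PVN. The Kv pore Kcna2 had -0.39 (-1.37 to 0.58), -0.79 (-2.41 to 0.82) and -0.83 (-2.07 to 0.30). For the leak channel Kcnk1 the values were -0.79 (-2.06 to 0.42), -0.62 (-1.91 to 0.60) and -0.35 (-1.51 to 0.78). Kcnma1 had -0.46 (-1.56 to 0.64), -0.30 (-2.28 to 1.68) and -0.48 (-2.48 to 1.37). For Kcnn3, a small-conductance calcium-activated pore, the values were 0.55 (-0.78 to 1.94), -0.07 (-1.53 to 1.40) and 0.26 (-1.29 to 1.87). Each of these intervals included 0, and whether tissues differed was not tested.

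Kcna1, which with Kcna2 forms the low-threshold Kv channels of axons, had 0.06 (-0.97 to 1.08) in the MBH, -1.17 (-2.48 to 0.10) in the DMH and -0.46 (-2.05 to 1.04) in the PVN. Kcnc1, a fast delayed rectifier, had -0.60 (-1.51 to 0.30), 0.54 (-1.10 to 2.17) and 0.04 (-1.38 to 1.42). The docking subunit Kcnab2 had -0.15 (-1.30 to 1.00) in the MBH and -1.14 (-2.75 to 0.47) in the DMH, beside its PVN value above. The DMH estimates of Kcna1 and Kcnab2 were the lower ones here, and lay below the DMH median of all genes, -0.36, with intervals that reached past it.

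The acid-sensitive leak channels Kcnk3 and Kcnk9 had 0.19 (-0.77 to 1.16) and -0.11 (-1.12 to 0.90) in the MBH and 0.30 (-1.36 to 1.86) and 0.13 (-1.31 to 1.57) in the DMH. Kcnj9, a G protein-gated partner subunit, had -0.54 (-2.33 to 1.14) in the MBH and 0.89 (-1.03 to 3.27) in the PVN, and Kcnj5, the cardiac and neuronal member of that family, -1.02 (-2.90 to 0.78) in the MBH. Kcnq5, the third M-current gene, had -0.26 (-1.99 to 1.46), -0.57 (-2.28 to 1.04) and 0.03 (-1.64 to 1.64) in the MBH, DMH and PVN, and Kcnmb4, the neuronal subunit of the large-conductance channel, 0.62 (-1.02 to 2.32) in the MBH and -0.93 (-2.73 to 0.47) in the PVN. Kcnn1, read in 13 MBH libraries, had -1.08 (-4.10 to 1.13) there and -0.68 (-2.55 to 0.87) in the PVN.

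**Figure D5:**
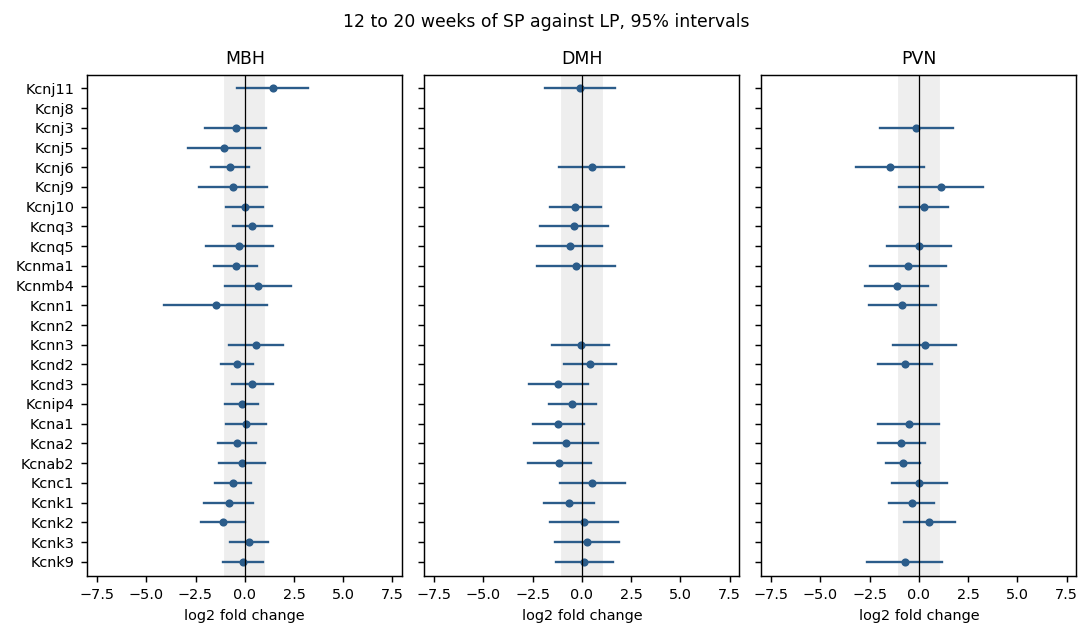
Log2 fold change of 12 to 20 weeks of SP against LP (x axis) for named potassium channel genes (y axis), 1 panel for each tissue, with points at the middle and lines for the length of the 95% interval, and the band of 2-fold change in grey. Kcnj10 and Kcnip4 in the MBH lie inside the band, and most intervals reach beyond it. Genes with no finite interval, such as Kcnj8 and Kcnn2, or that did not pass in the tissue are left blank.

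Other genes that set excitability were taken as a list of sodium, calcium and HCN channels, sodium pump subunits, chloride transporters and channel partners, of which 33 passed in the MBH, 33 in the DMH and 29 in the PVN. The edgeR F-test and the DESeq2 likelihood ratio test passed 0 of them in each tissue. In the DMH the edgeR F-test passed 1 without TMM and 2 with no filter on low counts. Unadjusted p-values under 0.05 were found for 1 in the MBH (Hcn3; 3.03%, against 6.07% of all genes), 6 in the DMH (18.2%, against 12.5%: Amigo1 and the calcium channel pores Cacna1a, Cacna1c, Cacna1d, Cacna1h and Cacna1i) and 3 in the PVN (10.3%, against 5.01%: Cacna1c, Cacna1d and the pacemaker channel Hcn2). The median maintenance log2 fold change of the list was -0.12 in the MBH, -0.73 in the DMH and -0.12 in the PVN, beside the medians over all genes given for each tissue.

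The channel genes that did not pass were read in fewer than 10 libraries. They were 18 in the MBH, 33 in the DMH and 29 in the PVN, and included the cardiac and epithelial pore Kcnq1 in the MBH and DMH (4 and 1 libraries), the intermediate-conductance channel Kcnn4 in all 3 tissues (2, 1 and 2 libraries) and the minK-type subunits Kcne1 (8, 1 and 3) and Kcne3 (3, 1 and 1). In the PVN the leak channel Kcnk3 was read in 2 libraries, against 48 in the MBH, while its relative Kcnk15 was read in 45 and 5. The PVN libraries had fewer counts and their isoforms were listed differently, so neither is taken as a difference between tissues. The RNA genes antisense to Kcnmb4, Kcnmb4os1 and Kcnmb4os2, did not pass in any tissue. Kcnq1ot1 was read in 48 MBH and 25 DMH libraries, and since the sources used here do not say that strand was used in counting, its reads and those of Kcnq1 cannot be told apart.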

How the data were processed

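Polyadenylated RNA of 54 MBH, 54 DMH and 54 PVN dissections was sequenced as Nanopore PCR-cDNA. Per the labels and the study's methods, the authors called bases with guppy, trimmed and filtered reads with Porechop and Filtlong, mapped them to the mouse genome with Minimap2, and estimated counts per isoform with Salmon. They deposited estimated counts, not normalised, after an edgeR filter on low transcripts, with libraries not pooled. No source used here names the annotation behind the PVN isoforms, and 0 columns of the tables were left unmapped. The PVN table listed 35465 isoforms, against 91460 in the MBH and 89356 in the DMH. Apart from Gm32262, the most read symbol was LOC118239032 in the PVN (7.79% of counts), Akap5 in the MBH (9.19%) and Gm33937 in the DMH (17.9%). Gm32262 itself took 0% of the PVN counts. The PVN listing thus differed from that of the MBH and DMH in its isoforms and in its most read symbols. The mouse genome is given for the PVN only as the study states it, and whether the PVN shared that reference was not tested.

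Here isoform values were summed per gene symbol and rounded, Gm32262 was left out, and genes read in at least 10 libraries of a tissue were kept. Each tissue was fitted apart with edgeR 4.0.16 in R 4.3.3 (TMM factors, quasi-likelihood in its edgeR 3 form), with an F-test over 8 SP coefficients, contrasts of each week and phase with LP, and a 32-week harmonic. A trial on counts drawn from the fitted model held no counts repeated over isoforms, and changed only genes above a count floor. It therefore cannot vouch for the calls on rarely read genes. P-values were adjusted by Benjamini-Hochberg over all genes tested, at FDR below 0.1. CPM used TMM-scaled totals. Named genes were also compared by exact permutation of the libraries (difference of mean CPM, 2-sided), adjusted over 8 weeks. DESeq2 1.42.0 used a likelihood ratio test over the groups and for the harmonic, and a Wald test for the contrasts. Figures in matplotlib 3.10.9 and tables in pandas 2.3.3 completed the analysis. Alternatives changed the size factors, filters, isoforms, test and libraries. P-values measure the spread between hamsters, 1 library each.

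The members, role groups, partner list and markers were chosen with earlier results of these data known. Genes named were those past a threshold, the 5 with the smallest F-test p, the 8 with the most counts, and a fixed set of channels compared between tissues. No fold change is given as a bound against a group of all-0 libraries, since counts summed over isoforms are not numbers of reads. The pituitary table was not used here.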

Additional observations from a re-analysis of the deposited data

Results flagged for a closer look

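Single libraries stood apart within groups of 6 by Dixon's criterion (the gap to the next library over the range of the group, at the 95% level) in 5 of the groups tested (those with a count in at least 4 libraries), which were 57 in the MBH, 7 in the DMH and 15 in the PVN, and chance alone marks about 1 group in 20. In the MBH these were Kcnj10 at 8 weeks (replicate 1 highest at 19 CPM, next 9.18), Kcnip1 in LP (replicate 3 highest at 147 CPM, next 69.1) and Kcnd2 at 8 weeks (replicate 4 highest at 17.5 CPM, next 8.16). In the DMH they were Kcnk4 in LP (replicate 1 highest at 4.33 CPM, next 0.864) and Kcnj10 at 8 weeks (replicate 4 highest at 9.21 CPM, next 3.32).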

How the results depend on the processing

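The counts of potassium channel genes past the threshold depended on the processing, whereas no called value changed sign. Over the 9 groups the MBH count of 1 became 0 with FDR below 0.05, edgeR's own filter on low counts, libraries under 10000 counts left out, robust quasi-likelihood, DESeq2, the isoform with the maximum in each library, or libraries with fewer than 6000 genes left out, the last 2 chosen after seeing the data. The DMH count of 3 became 0 with FDR below 0.05, edgeR's filter, the highest isoform, edgeR 4 quasi-likelihood, DESeq2 or the maximum isoform. It became 15 with no filter. The DMH fit without libraries of few genes is not counted in this paragraph, since it lost most libraries at 20, 28 and 32 weeks. Counts over all genes moved from 46 in the MBH to 28 (FDR below 0.05, and without libraries of few genes), 89 (no filter), 3 (edgeR's filter), 70 (edgeR 4) and 12 (DESeq2). In the DMH they moved from 181 to 49 (FDR below 0.05), 113 (DESeq2 size factors), 60 (no TMM), 956 (no filter) and 7 (edgeR's filter). They also moved there to 19 (highest isoform), 6 (edgeR 4), 1 (DESeq2) and 29 (maximum isoform). In the PVN they moved from 0 to 3 (no filter), 10 (highest or maximum isoform) and 14 (edgeR 4). For maintenance in the MBH, 1 channel gene passed without TMM or with the highest isoform, and in recovery 0 did with edgeR's filter or DESeq2. For the DMH, induction gave 1 with FDR below 0.05, DESeq2 size factors or the maximum isoform. It gave 0 with edgeR's filter, the highest isoform, edgeR 4 or DESeq2. DMH maintenance gave 0 under each of these settings and 2 with no filter, and DMH recovery gave 1 with DESeq2 size factors, Gm32262 kept or robust quasi-likelihood and 3 with no filter. The harmonic passed 4 channel genes in the MBH and 4 in the DMH with no filter. For the phases and the harmonic the share of all genes was not computed under any alternative, here or below. No excess among channel genes can therefore be read from these counts. Named gene and week pairs with an exact p under 0.05 were 10 in the MBH and 1 in the PVN without TMM. They were 11 in the PVN without libraries under 10000 counts, and the share of all pairs was not computed for these settings. The cause of these shifts was not tested. No DMH library had under 10000 counts, so that setting gave no value there.

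Leaving out each replicate number in turn gave 0 channel genes over the 9 groups in the MBH, 0 to 1 in the DMH and 0 in the PVN, and 3 to 21, 4 to 72 and 0 genes in all. In the MBH the range was 0 to 1 for maintenance, recovery and the harmonic. In the DMH it was 0 to 2 for induction and maintenance and 0 to 1 for recovery. Named pairs with an exact p under 0.05 ranged from 4 to 10 in the MBH, 1 to 32 in the DMH, where 32 came without replicate 3, and 3 to 12 in the PVN, where 12 came without replicate 1. Those with an adjusted exact p under 0.1, which were 1, 0 and 0, ranged from 1 to 8, from 0 to 18 and from 0 to 7. The highest came without replicates 6, 3 and 1 in turn, and the shares of all pairs without a replicate were not computed. Over their alternatives the edgeR or DESeq2 adjusted p ranged from 0.0449 to 1.00 for Kcnj12 (6 of 19 past the threshold), from 0.00234 to 1.00 for Kcnmb2 (13 of 19), from 0.0214 to 1.00 for Kcnb2 (10 of 18), from 0.0381 to 1.00 for Kcnh7 in the F-test (8 of 16), from 0.0495 to 1.00 for Kcnk4 (3 of 18) and from 0.0265 to 1.00 for Kcnt1 (6 of 12). For Kcnn2 at 28 weeks the adjusted exact permutation p ranged from 0.0173 to 0.485, above 0.1 with the highest isoform only.

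The labels do not say that a replicate number marks a shared animal or batch, and 59 (MBH), 101 (DMH) and 32 (PVN) of 216 same-numbered pairs of libraries had deviations correlated above 0.1, so the numbers were not taken to pair the samples. The median correlation was 0.0557, 0.0672 and 0.0362 between same-numbered libraries and -0.00441, -0.0161 and -0.00916 between others. Of 54 libraries 27, 16 and 25 correlated best with their own number, where chance alone would give about 1 in 6. This is a hint of shared deviation from the data and not the design, and the main fit has no term for it. With the replicate number as a block, 0 channel genes passed over the 9 groups in each tissue, against 1, 3 and 0 without it. Over all genes 22, 4 and 0 passed with the block, against 46, 181 and 0. Channel genes that passed with the block were 0 in MBH recovery, 1 in DMH induction and 0 in DMH maintenance.

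The median maintenance log2 fold change over all genes was -0.29 in the MBH and -1.0 in the DMH without TMM, against -0.06 and -0.36 with it. In the DMH 15 of 53 genes were read in 27 or more libraries, against 49 of 71 in the MBH and 25 of 52 in the PVN, at median totals of 932100.5, 952860 and 168902.5 counts. Intervals cover the spread between hamsters in edgeR's model, not the listing of a count on several isoforms.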
